A study of Mus musculus with 12 samples.

Results

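By their median, genes of mouse chromosome 12 carried more background reads than autosomal genes of the same size in all 6 libraries. The libraries held chromatin precipitated with non-specific IgG from mpkCCD cells. These genes were chosen by read density: earlier results on these libraries had shown chromosome 12 above most autosomes, with 4 dense stretches. The genes described here are those left once the stretches are taken out. Members are RefSeq transcript intervals of at least 20 kb and 2 or more blocks that overlap none of 28.7 to 30.2, 75.6 to 77.6, 80.9 to 81.5 and 86.2 to 87.2 Mb, with Adcy3 and Mycn also left out. Taking the longest interval of each gene, 345 genes with 515 intervals met this rule, of 376 chromosome 12 genes of these size limits, of 9541 such genes on the autosomes and of 33062 intervals in all. Since density chose them, their density is given as a description, with no test.

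mpkCCD (clone 11) is a transformed line of mouse renal collecting duct principal cells, here at passages 6 to 10. One group of 3 IgG libraries came from cells kept with 0.1 nM dDAVP, a vasopressin analog selective for the V2 receptor, and another group of 3 from cells kept with its vehicle, all harvested 24 h after serum was withdrawn. The other 6 of the series' 12 samples, precipitated with an antibody to the RNA polymerase II subunit Polr2a, were not analysed here. One clone stands for the cell type, and the sources used here do not say whether the experiments were separate cultures, so the spread between libraries may be technical.

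Vasopressin acts on principal cells through the V2 receptor, which raises cyclic AMP and, through protein kinase A, changes water channel traffic and transcription. A chromatin precipitation for RNA polymerase II reads out where genes are occupied by the enzyme. Its IgG control holds chromatin carried along without a target protein, so it shows the level over each gene on which a specific signal would stand.

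Total reads over all intervals were 12632322 to 13403860 with dDAVP and 10588927 to 19748658 with vehicle. Experiments 1 and 2 of each group differed by little more than sampling noise, with a chi-square over degrees of freedom of 1.02 for dDAVP and 1.01 for vehicle. Each such pair was counted once, so each group has n = 2. dDAVP experiment 3 stood apart from the other 5 libraries: it held far more reads over GC-rich genes, so its values are given apart from those of the other 5. The median member held 500.0 to 912 reads per library, a counting error of 3.31 to 4.47%, and 333 of the 345 had at least 100 reads in every library. Copies of the same molecule cannot be told from separate molecules in these counts, so this covers counting error only.

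Relative density below is reads per kb per total reads of the library, divided by the median of autosomal genes of the same length class, so 1 is the typical autosomal gene of that size. GC-matched relative density divides instead by the median of autosomal genes of similar length and GC content. Member intervals ran from 20.1 to 1540 kb with a median of 57.1 kb, and their GC content from 34.7 to 59.4% with a median of 42.8%, beside 43.6% for the 9165 genes of other autosomes. Of the 345 members, 37 overlapped another member, and overlapping genes share reads because no strand was used. The interval under the symbol Mir466o spans 361 kb with 59 bases in its 5 blocks, so it is a scattered alignment and not the span of that microRNA's hairpin. Of 2 members with no symbol, 1 lies within the interval of Tc2n and shares its reads.

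Promoter sequence gives a second view of the members that did not enter the rule. RefSeq promoters (GRCm38.p6, 250 bases before to 50 after the start site) matched 282 of the 345 members. A promoter was called CpG-rich when its observed over expected CpG ratio was at least 0.6 and its GC content at least 55%. Every other promoter was called CpG-poor, whichever limit it missed. The letters CG, searched without overlap on 1 strand since they read the same on the other, occurred in the 120 bases before the start site in 269 of the 282 (95.4%) and in 93.4% of 6477 such promoters on other autosomes. The 4 stretches shown are the 120 bases before the start sites of the 2 members of lowest and the 2 of highest mean relative density over the 6 libraries, with each CpG in capitals, 5′ to 3′ on the gene's strand. They lie at chr12:69790708-69790827 (minus strand), chr12:101083703-101083822 (minus), chr12:108003415-108003534 (minus) and chr12:105336474-105336593 (plus).
Cdkl1: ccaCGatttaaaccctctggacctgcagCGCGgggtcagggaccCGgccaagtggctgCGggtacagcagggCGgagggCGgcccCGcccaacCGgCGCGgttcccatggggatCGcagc
Ppp4r3a: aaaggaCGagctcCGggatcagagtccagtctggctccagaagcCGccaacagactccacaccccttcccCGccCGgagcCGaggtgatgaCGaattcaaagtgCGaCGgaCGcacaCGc
Bcl11b: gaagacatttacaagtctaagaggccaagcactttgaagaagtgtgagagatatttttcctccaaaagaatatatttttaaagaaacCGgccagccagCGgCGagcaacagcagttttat
Tunar: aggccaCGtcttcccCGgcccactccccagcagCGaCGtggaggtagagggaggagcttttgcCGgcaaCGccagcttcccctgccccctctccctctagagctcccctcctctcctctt

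Cdkl1 and Ppp4r3a hold 12 and 11 CpGs in these 120 bases and are CpG-rich, and Bcl11b and Tunar hold 3 and 6 and are CpG-poor. Bcl11b missed only the limit on GC content (43%, with a CpG ratio of 0.652), and Tunar only that on the ratio (0.421). Which members rank lowest and highest rests on dDAVP experiment 3: without it, Cdkl1 ranked 3 and Ppp4r3a 30 from the lowest, and Tunar 12 and Bcl11b 83 from the highest of 345. These 4 promoters are examples and do not stand for all low or high members. The median over the 282 promoters was 10 CpGs, beside 9 on other autosomes.

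As a set, the members had a median relative density of 1.35, 1.36 and 1.40 across dDAVP experiments 1 to 3, against 1.37, 1.36 and 1.39 across vehicle experiments 1 to 3. The group means were 1.38 ± 0.0316 with dDAVP and 1.38 ± 0.0175 with vehicle (SD, n = 2 each), so the groups overlapped. GC-matched medians were 1.34, 1.34 and 1.43 with dDAVP and 1.34, 1.34 and 1.36 with vehicle. Among the 19 autosomes, with chromosome 12 represented by its members, this level ranked second in every library after GC matching, and second in 5 libraries and the third in vehicle experiment 3 without it. Chromosome 19 was higher in all 6 libraries, with medians of 1.42 to 1.48, or 1.43 to 1.48 GC-matched. Chromosome 3, the closest below it after GC matching, had 1.06 to 1.43, or 1.28 to 1.36 GC-matched. None of these orders was tested.

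Most members lay above 1 in each library. The count was 324 to 343 of the 345 (93.9 to 99.4%) in the 5 libraries other than dDAVP experiment 3, and 227 (65.8%) in that library. For the members the fifth percentile was 0.953 to 1.11 in the 5 and 0.393 in dDAVP experiment 3. In all 6 libraries at once, 205 members (59.4%) lay above 1, beside 18.0% of the 9165 genes of other autosomes. Without dDAVP experiment 3 the count was 320 (92.8%), beside 35.1%. GC-matched, 296 members (85.8%) lay above 1 in all 6 libraries, beside 29.4%. The chromosomes nearest in level had shares like those of the members. Without dDAVP experiment 3, 96.6% of chromosome 19 genes and 93.2% of chromosome 3 genes lay above 1. GC-matched in all 6 libraries, 90.2% and 80.8% did. No member lay below 1 in every library, whereas 1965 genes of other autosomes did, 0 of them on chromosome 19 and 1 on chromosome 3. The rule used the members' values, so their counts show only how evenly the level was spread.

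**Figure D1:**
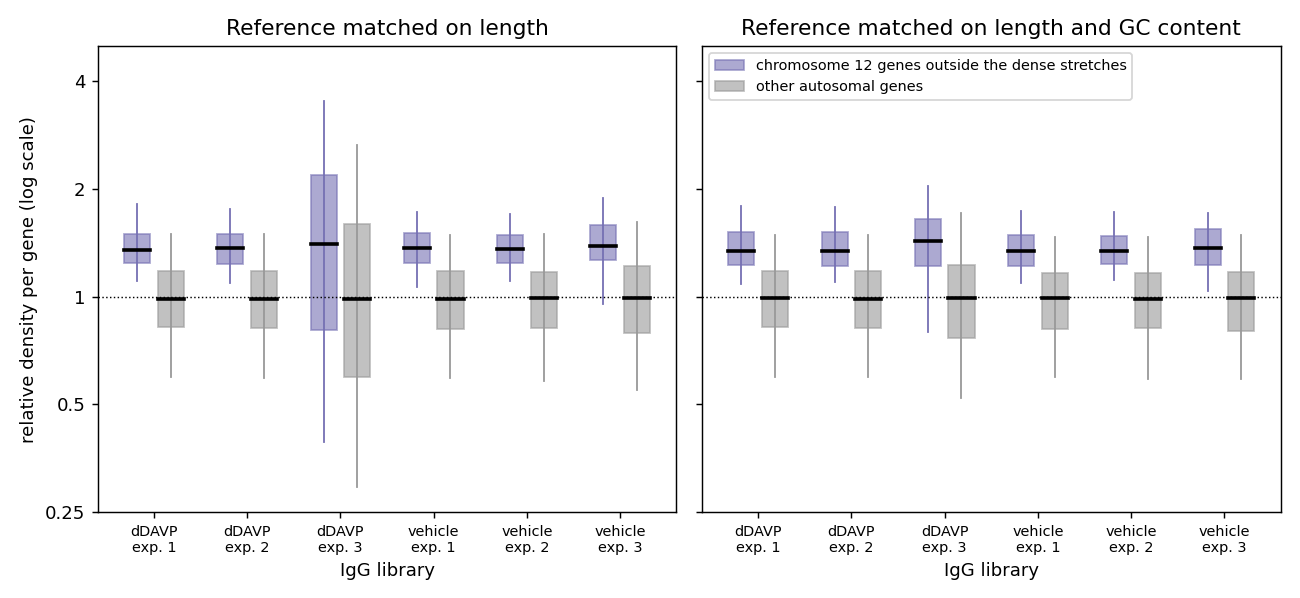
Relative density per gene (log scale) in each of the 6 IgG libraries, for the 345 chromosome 12 genes outside the dense stretches and 9165 genes of other autosomes. Boxes span the 25th to 75th percentile, black lines are medians and thin lines run from the 5th to the 95th percentile. The chromosome 12 medians lie at 1.35 to 1.40 matched on length (left) and 1.34 to 1.43 matched on length and GC content (right), and dDAVP experiment 3 has the widest spread.

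Across the 5 libraries other than dDAVP experiment 3, 224 members stayed above 1.2 in each and 40 above 1.5. The interquartile range over members was 0.26 to 0.32 on the log2 scale in those libraries and 1.44 in dDAVP experiment 3, or 0.44 there after GC matching. For a single member, the highest of the 5 values was 1.16 times the lowest at the median, or 1.12 times GC-matched, and those 5 hold both pairs of repeat libraries.

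Along the chromosome nearly all bins lay above 1. Of the 24 bins of 5 Mb, numbered from the chromosome's start, 22 held at least 5 members, and all 22 had a median above 1 in each library but dDAVP experiment 3, where 16 did. After GC matching all 22 were above 1 in all 6 libraries. The first bin, with 15 genes such as Rab10 and Dnmt3a, had 1.30, 1.33 and 1.53 with dDAVP and 1.31, 1.29 and 1.33 with vehicle. The 17th, the fullest with 32 genes, had 1.39, 1.38 and 1.82 with dDAVP and 1.38, 1.37 and 1.35 with vehicle. The 23rd, with 23 genes and the highest GC content of the ranked bins (49.4%), had 1.23, 1.26 and 3.10 with dDAVP and 1.16, 1.19 and 1.05 with vehicle, the lowest in 4 libraries and the highest in dDAVP experiment 3. GC-matched, that bin had 1.29, 1.33 and 1.44 with dDAVP and 1.29, 1.30 and 1.26 with vehicle, inside the range of the other bins. The SD between the 22 bin medians was 0.112 to 0.155 on the log2 scale in the 5 libraries other than dDAVP experiment 3, and 0.561 in that one. From the lowest of the 19 autosomes these ranked 5 to 14 and 7, so some other chromosomes were more even in each library.

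One bin stood above most others. The 6th bin, from 25 to 30 Mb, held 7 members with a median of 1.82, 1.83 and 1.84 with dDAVP and 1.70, 1.73 and 1.63 with vehicle, the highest of the 22 bins in 4 libraries, the third in vehicle experiment 3 and the fourth in dDAVP experiment 3. GC-matched it was 1.71, 1.77 and 1.47 with dDAVP and 1.70, 1.67 and 1.71 with vehicle, the highest in 5 libraries and the seventh in dDAVP experiment 3. Its mean over samples was 1.83 ± 0.0115 with dDAVP and 1.67 ± 0.0631 with vehicle (SD, n = 2 each). The highest of the other bins had 1.53 to 1.75 matched on length in the 5 libraries other than dDAVP experiment 3.

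The 7 members of that bin were not alike. Kidins220, a membrane scaffold and kinase substrate in neurotrophin signalling at the bin's start (chr12:24974932-25059697), had 1.25, 1.22 and 1.54 with dDAVP and 1.25, 1.23 and 1.40 with vehicle. In experiments 1 and 2 of both groups Kidins220 was below the median of all members and near their 25th percentile (1.23 to 1.24). In experiment 3 of both groups it was above that median. Rnf144a, a RING-type ubiquitin ligase (chr12:26306794-26415262), had 1.82, 1.85 and 2.18 with dDAVP and 1.70, 1.73 and 1.61 with vehicle. The noncoding Gm20187 reached 2.02, 2.03 and 0.746 with dDAVP and 1.72, 1.90 and 2.33 with vehicle, with 404, 386 and 175 reads across dDAVP experiments 1 to 3, against 286, 294 and 621 reads across vehicle experiments 1 to 3, in sum the fewest of the 7. Dcdc2c, a doublecortin-domain gene, had 1.82, 1.89 and 1.84 with dDAVP and 1.75, 1.77 and 1.69 with vehicle. Allc, an allantoicase, and Colec11, a secreted collectin, had 1.59 to 2.24 and 1.38 to 2.11 over the 6 libraries, and 4930480M12Rik had 0.559 to 1.99. In the 5 libraries other than dDAVP experiment 3, Kidins220 lay between 1.22 and 1.40 and the other 6 lay above 1.38. Allc and Colec11 end within 0.12 Mb of the first dense stretch.

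**Figure D2:**
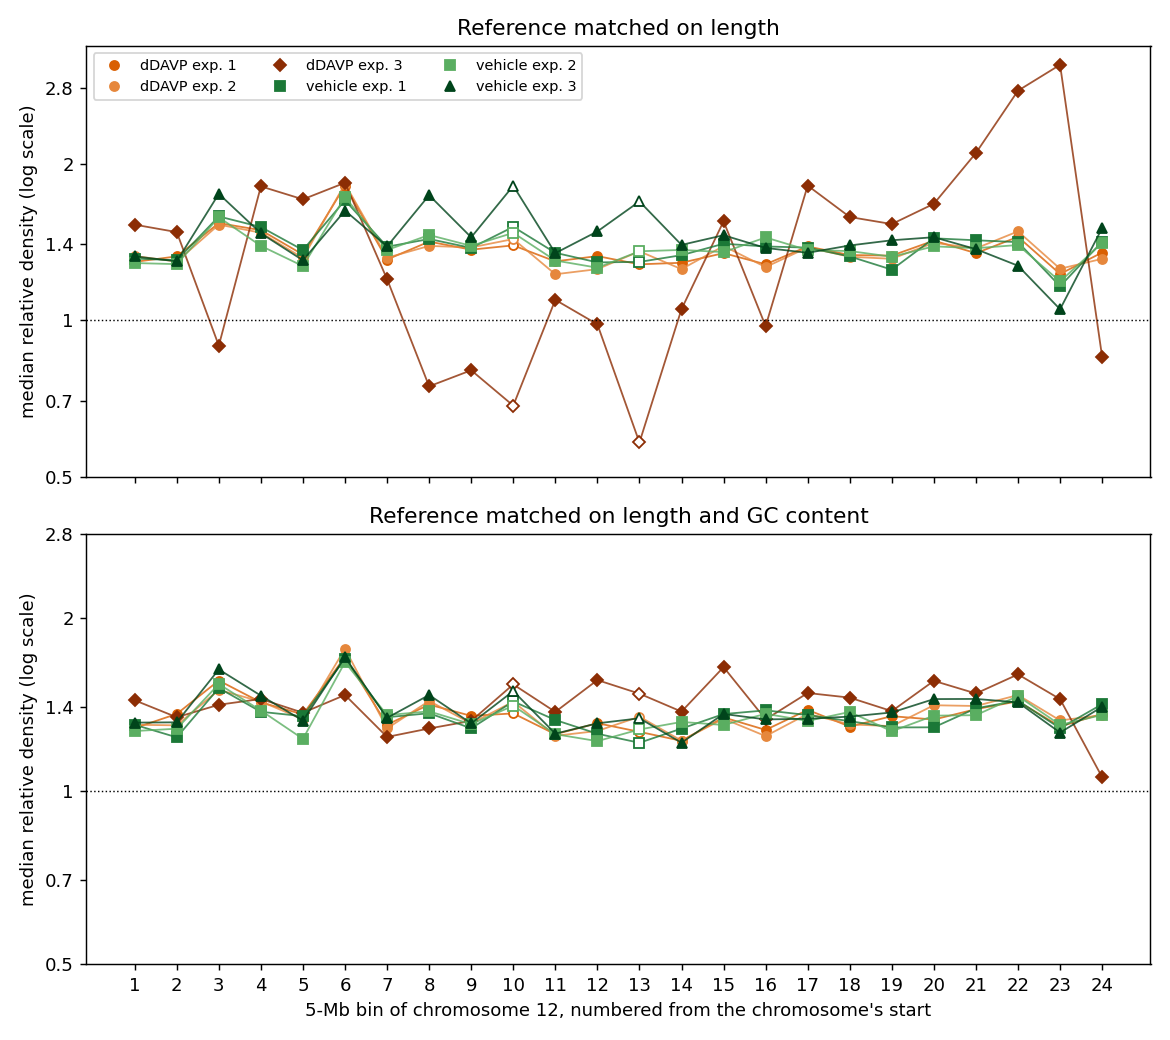
Median relative density (log scale) of the chromosome 12 genes in 5-Mb bins numbered from the chromosome's start, 1 line per IgG library, with the reference matched on length (top) and on length and GC content (bottom). Open symbols are the 2 bins with under 5 genes. Every filled point of the 5 libraries other than dDAVP experiment 3 lies above 1, and bin 6 is the highest of these bins in 4 of the 5 at the top and in all 5 at the bottom. The filled points of dDAVP experiment 3 run from 0.746 to 3.10 at the top and from 1.06 to 1.64 at the bottom.

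Smoc1 and Fut8, inside the stretches, stood far above Susd6, Med6 and Ppp2r5e, members next to the limits. Smoc1, a matrix calcium-binding glycoprotein in the third stretch that the rule leaves out, had 13.5, 13.5 and 18.9 with dDAVP and 12.7, 13.0 and 10.8 with vehicle. Susd6, a member ending 0.0192 Mb before that stretch, had 1.27, 1.22 and 0.740 with dDAVP and 1.35, 1.28 and 1.31 with vehicle, and Med6, a Mediator subunit 0.0736 Mb after it, had 1.26, 1.38 and 0.952 with dDAVP and 1.57, 1.68 and 1.49 with vehicle. Between them, Synj2bp overlaps the stretch's end and is left out, yet had 1.33, 1.14 and 0.852 with dDAVP and 1.46, 1.20 and 1.51 with vehicle. Fut8, a fucosyltransferase in the second stretch, had 7.87, 7.81 and 4.76 with dDAVP and 8.12, 8.21 and 7.84 with vehicle. Ppp2r5e, a regulatory subunit of protein phosphatase 2A that ends 0.00380 Mb before that stretch, had 1.20, 1.22 and 0.925 with dDAVP and 1.27, 1.23 and 1.28 with vehicle.

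Other members next to a limit were higher than these, such as 2310016D03Rik after the first stretch, with 1.68 to 1.88 in the 5 libraries other than dDAVP experiment 3. Several genes removed by the limits were near the members' median. Trappc12, Wdr89 and Gpatch2l, outermost genes left out at 3 of the stretches, had 1.29 to 1.39, 1.36 to 1.52 and 1.34 to 1.45 in the 5 libraries other than dDAVP experiment 3. Tmed8 and Sntg2, also outermost genes left out, had 1.43 to 1.67 and 1.51 to 1.58 there, above the members' median in each of those libraries. Adcy3, an adenylyl cyclase left out by name, had 1.35, 1.29 and 3.16 with dDAVP and 1.32, 1.32 and 1.1 with vehicle, and Mycn at 5.74 kb is shorter than the length limit in any case. At the length limit, Ifrd1 (20.1 kb, inside) and Dld (19.9 kb, outside) had 10.1 and 9.69 reads per kb in dDAVP experiment 1.

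Members near to and far from a stretch had similar levels. GC-matched medians were 1.36, 1.31 and 1.39 with dDAVP and 1.33, 1.39 and 1.35 with vehicle for the 34 members within 1 Mb of a stretch. For the 193 members more than 10 Mb away they were 1.33, 1.35 and 1.44 with dDAVP and 1.34, 1.32 and 1.37 with vehicle. The order of the 2 classes differed between libraries. Neighbouring members were slightly more alike than distant ones: the median difference of GC-matched values between adjacent members (324 pairs) was 0.16 to 0.19 on the log2 scale in the 5 libraries and 0.32 in dDAVP experiment 3. Members at least 20 Mb apart gave 0.19 to 0.23 and 0.34. These are descriptions, and overlapping neighbours were not counted as adjacent pairs.

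Density followed GC content differently between libraries. Across the 345 members, Spearman's rho between GC content and relative density was 0.120 and 0.173 for dDAVP experiments 1 and 2 but 0.886 for dDAVP experiment 3. It was -0.127 and -0.128 for vehicle experiments 1 and 2 and -0.534 for vehicle experiment 3. These correlations are across genes of 1 library, which share its depth and base composition, and genes are not replicates. The tertile of members lowest in GC content (115 genes) had medians of 1.30, 1.27 and 0.720 with dDAVP and 1.39, 1.37 and 1.51 with vehicle. The highest tertile had 1.36, 1.39 and 2.70 with dDAVP and 1.34, 1.33 and 1.25 with vehicle. GC-matched, the lowest tertile had 1.31, 1.29 and 1.35 with dDAVP and 1.32, 1.32 and 1.31 with vehicle and the highest tertile 1.41, 1.41 and 1.48 with dDAVP and 1.39, 1.38 and 1.42 with vehicle, so both stayed above 1 in each library.

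**Figure D3:**
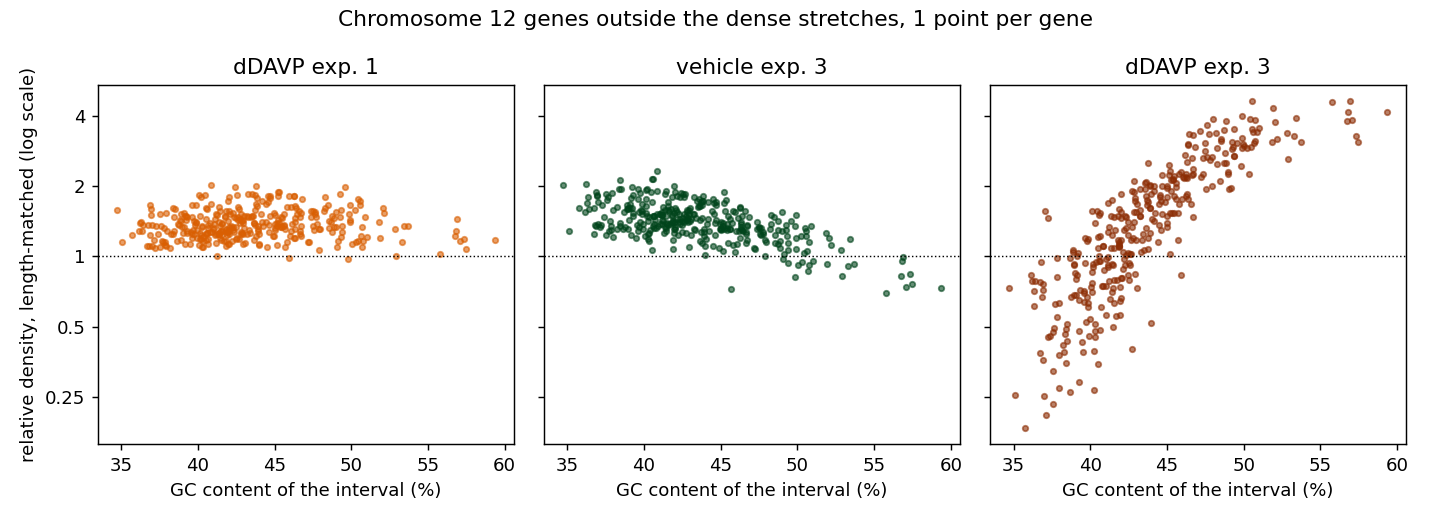
Relative density matched on length (log scale) against the GC content of the interval for the 345 chromosome 12 genes outside the dense stretches, in 3 of the 6 IgG libraries, 1 point per gene. The points are nearly level in dDAVP experiment 1 (rho 0.120), slope down in vehicle experiment 3 (rho -0.534) and climb steeply in dDAVP experiment 3 (rho 0.886).

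Members whose promoter was called CpG-poor had the higher GC-matched density. That class is not poor in CpG throughout, since a promoter could enter it by GC content alone. Mlh3 and Mok passed the limit on the CpG ratio and held 14 CpGs each in the 120 bases. Their GC content of 51.7 and 54.3% placed them in the CpG-poor class. The contrast is thus between the 2 called classes and not of CpG content alone. GC-matched medians over the whole interval were 1.46, 1.43 and 1.49 with dDAVP and 1.39, 1.41 and 1.45 with vehicle for the 112 with a CpG-poor promoter. For the 170 with a CpG-rich one they were 1.30, 1.30 and 1.41 with dDAVP and 1.29, 1.30 and 1.32 with vehicle. The CpG-rich class was lower in 6 of 6 libraries, at 0.893 to 0.950 of the CpG-poor class, and the same ratio on other autosomes was 0.884 to 0.941. Matched on length alone, the order turned in dDAVP experiment 3, with a ratio of 1.08 in members and 1.1 on other autosomes. The 2 classes had median lengths of 51.7 and 61.6 kb, and the part of length in this difference was not tested beyond the matching.

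Among signalling genes, the list of 22 kinases, small-GTPase regulators and adaptors had GC-matched medians of 1.28, 1.30 and 1.36 with dDAVP and 1.30, 1.29 and 1.32 with vehicle, and 18 of the 22 lay above 1 in all 6 libraries. Over all 345 members 296 did. The list's GC-matched median was below that of all members in 6 of 6 libraries. Without dDAVP experiment 3, 11 of the 22 (50.0%) lay below the median of all members in each library, beside 32.8% of the 345. Above it lay 6 (27.3%), beside 35.4%. Matched on length alone, 10 (45.5%) lay below and 3 (13.6%) above, beside 28.4% and 28.1%. Rgs6, which speeds GTP hydrolysis by G protein alpha subunits (chr12:82617038-83158812, 542 kb), had 1.52, 1.51 and 2.00 with dDAVP and 1.51, 1.49 and 1.38 with vehicle. Prkd1, a protein kinase D isoform, had 1.44, 1.44 and 1.04 with dDAVP and 1.50, 1.42 and 1.61 with vehicle, and Dock4, an exchange factor for Rac, had 1.40, 1.40 and 1.11 with dDAVP and 1.37, 1.41 and 1.51 with vehicle. Dgkb, a diacylglycerol kinase of low GC content (36.8%), had 1.36, 1.36 and 0.773 with dDAVP and 1.37, 1.36 and 1.61 with vehicle. Those 4 ran between 1.36 and 1.61 in each library but dDAVP experiment 3, where Rgs6 was the highest and Dgkb the lowest of the 4. They do not stand for the whole list.

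The 2 B56 regulatory subunits of protein phosphatase 2A on this chromosome differed in that library. Ppp2r5c (48.0% GC) had 1.31, 1.41 and 3.86 with dDAVP and 1.31, 1.25 and 1.15 with vehicle and Ppp2r5e (41.4%) had the values given above. GC-matched, Ppp2r5c had 1.27, 1.33 and 1.63 with dDAVP and 1.31, 1.28 and 1.41 with vehicle and Ppp2r5e 1.04, 1.04 and 1.06 with dDAVP and 1.11, 1.07 and 1.06 with vehicle, so Ppp2r5e was the lower in all 6. Rock2, a kinase of the actin cytoskeleton, had 0.210 in dDAVP experiment 3, where it held 140 reads, and 1.1 to 1.33 in the other libraries. Akt1, a kinase of growth factor signalling and at 20.5 kb 1 of the shortest members, had 1.07, 0.993 and 3.09 with dDAVP and 0.766, 1.01 and 0.759 with vehicle with at least 101 reads.

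Of a short list of genes linked to cyclic AMP, the pathway that dDAVP acts on, 3 were members. Their GC-matched medians were 1.56, 1.60 and 1.35 with dDAVP and 1.46, 1.46 and 1.55 with vehicle. The list is not complete, and Prkar2b, a protein kinase A subunit and a member, was not on it. Akap6, which anchors protein kinase A at membranes (chr12:52699383-53151015, 452 kb), had 1.45, 1.46 and 1.68 across dDAVP experiments 1 to 3, against 1.38, 1.45 and 1.55 across vehicle experiments 1 to 3, or 1.57 ± 0.164 with dDAVP and 1.48 ± 0.0951 with vehicle (SD, n = 2 each). Vipr2, a receptor for vasoactive intestinal peptide that couples to adenylyl cyclase (chr12:116077726-116146261), had 1.73, 1.82 and 1.41 with dDAVP and 1.78, 1.57 and 1.70 with vehicle. Tshr, the thyrotropin receptor, had 1.56, 1.51 and 1.17 with dDAVP and 1.44, 1.42 and 1.61 with vehicle, and GC-matched 1.36, 1.30 and 1.35 with dDAVP and 1.26, 1.24 and 1.33 with vehicle, below the median of all members in 5 of the 6 libraries. All 3 lay above 1 in all 6 libraries, and dDAVP and vehicle values overlapped for each. Sstr1 and Dio2 of the same list were shorter than 20 kb and so are no members.

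Transcription factors and chromatin regulators, 17 members, had GC-matched medians of 1.35, 1.35 and 1.35 with dDAVP and 1.36, 1.32 and 1.39 with vehicle, close to all members. Greb1, an oestrogen-responsive gene among the 5 highest members over the 6 libraries (chr12:16670615-16800886), had 1.76, 1.77 and 2.94 across dDAVP experiments 1 to 3, against 1.66, 1.67 and 1.47 across vehicle experiments 1 to 3. Bcl11b, a zinc finger factor of T cell and neuron development and the highest member over the 6 libraries (chr12:107910403-108003414, 50.6% GC), had 1.72, 1.61 and 4.62 with dDAVP and 1.42, 1.56 and 1.23 with vehicle. GC-matched, Bcl11b had 1.92, 1.78 and 1.71 with dDAVP and 1.68, 1.84 and 1.79 with vehicle, above the median of all members in each library. Npas3, a basic helix-loop-helix factor over 823 kb, had 1.50, 1.54 and 1.34 with dDAVP and 1.48, 1.47 and 1.62 with vehicle, and Hdac9, a class IIa histone deacetylase over 870 kb, had 1.34, 1.32 and 0.918 with dDAVP and 1.39, 1.37 and 1.59 with vehicle.

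Factors of high and low GC content had opposite values in dDAVP experiment 3. Dnmt3a, a de novo DNA methyltransferase (51.0% GC), had 1.22, 1.21 and 3.54 with dDAVP and 1.11, 1.12 and 0.951 with vehicle. Hif1a, the oxygen-regulated factor (37.0% GC), had 1.1, 1.07 and 0.251 with dDAVP and 1.35, 1.28 and 1.38 with vehicle, with 84 reads in dDAVP experiment 3. GC-matched, Dnmt3a had 1.36, 1.34 and 1.31 with dDAVP and 1.31, 1.31 and 1.39 with vehicle and Hif1a 1.02, 1.03 and 0.710 with dDAVP and 1.20, 1.16 and 1.06 with vehicle. Foxn3, a forkhead factor, had 3.44 in dDAVP experiment 3 and 1.08 to 1.17 in the other 5, and 1.29 to 1.55 in all 6 GC-matched. Ncoa1, a nuclear receptor coactivator and the member with most reads in the first bin, had 1.16 to 1.39 over the 6 libraries.

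Neuronal adhesion, synapse and channel genes had the highest median of the 5 lists with at least 10 members in each library but dDAVP experiment 3, GC-matched or not. Their 11 members had GC-matched medians of 1.51, 1.55 and 1.32 with dDAVP and 1.51, 1.48 and 1.52 with vehicle, and 10 of 11 lay above 1 in all 6 libraries. In each of the 5 libraries other than dDAVP experiment 3, 9 of the 11 (81.8%) lay above the median of all members, beside 122 of the 345 (35.4%). Matched on length alone, 7 of the 11 (63.6%) did, beside 97 (28.1%). Nrxn3, a presynaptic adhesion receptor and the longest member (chr12:88794504-90334933, 1540 kb), had 1.53, 1.51 and 0.681 across dDAVP experiments 1 to 3, against 1.55, 1.52 and 1.68 across vehicle experiments 1 to 3, or 1.1 ± 0.596 with dDAVP and 1.61 ± 0.106 with vehicle (SD, n = 2 each). It held at least 5816 reads in each library, and GC-matched it had 0.899 in dDAVP experiment 3. Mdga2, a synaptic adhesion protein anchored in the membrane (36.3% GC), had 1.41, 1.41 and 0.712 with dDAVP and 1.48, 1.48 and 1.69 with vehicle. Ptprn2, a phosphatase-like protein of secretory granules, had 1.54, 1.51 and 2.01 with dDAVP and 1.41, 1.47 and 1.38 with vehicle. Gphn, which gathers inhibitory receptors at synapses and lies 0.627 Mb after the second stretch, was the low member of the list with 1.11, 1.07 and 0.948 with dDAVP and 1.20, 1.20 and 1.36 with vehicle.

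The list headed DNA repair, RNA processing, trafficking and oxygen sensing also holds genes of other roles, such as Immp2l and Strn3. It had the lowest GC-matched median of those 5 lists in each library but vehicle experiment 2. Matched on length alone it had the lowest in 3 of the 6 libraries. Its 17 members had GC-matched medians of 1.23, 1.24 and 1.30 with dDAVP and 1.27, 1.26 and 1.30 with vehicle. These were below the median of all members in 6 of 6 libraries. In each of the 5 libraries other than dDAVP experiment 3, 9 of the 17 (52.9%) lay below that median, beside 113 of the 345 (32.8%). Matched on length alone, 6 of the 17 (35.3%) did, beside 98 (28.4%), a share near that of all members. Immp2l, a mitochondrial inner membrane peptidase over 931 kb, had 1.37, 1.37 and 0.981 with dDAVP and 1.39, 1.38 and 1.55 with vehicle. Nbas, of retrograde transport from the Golgi apparatus, had 1.26, 1.23 and 1.49 with dDAVP and 1.26, 1.26 and 1.33 with vehicle. Egln3, a prolyl hydroxylase that senses oxygen, and Strn3, a striatin of phosphatase complexes, were among the 5 lowest members over the 6 libraries, with 0.835 to 1.23 and 0.324 to 1.23. That place rested on dDAVP experiment 3, without which Egln3 ranked 8 and Strn3 36 from the lowest. The lists were written with earlier results known, so these orders are descriptions.

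**Figure D4:**
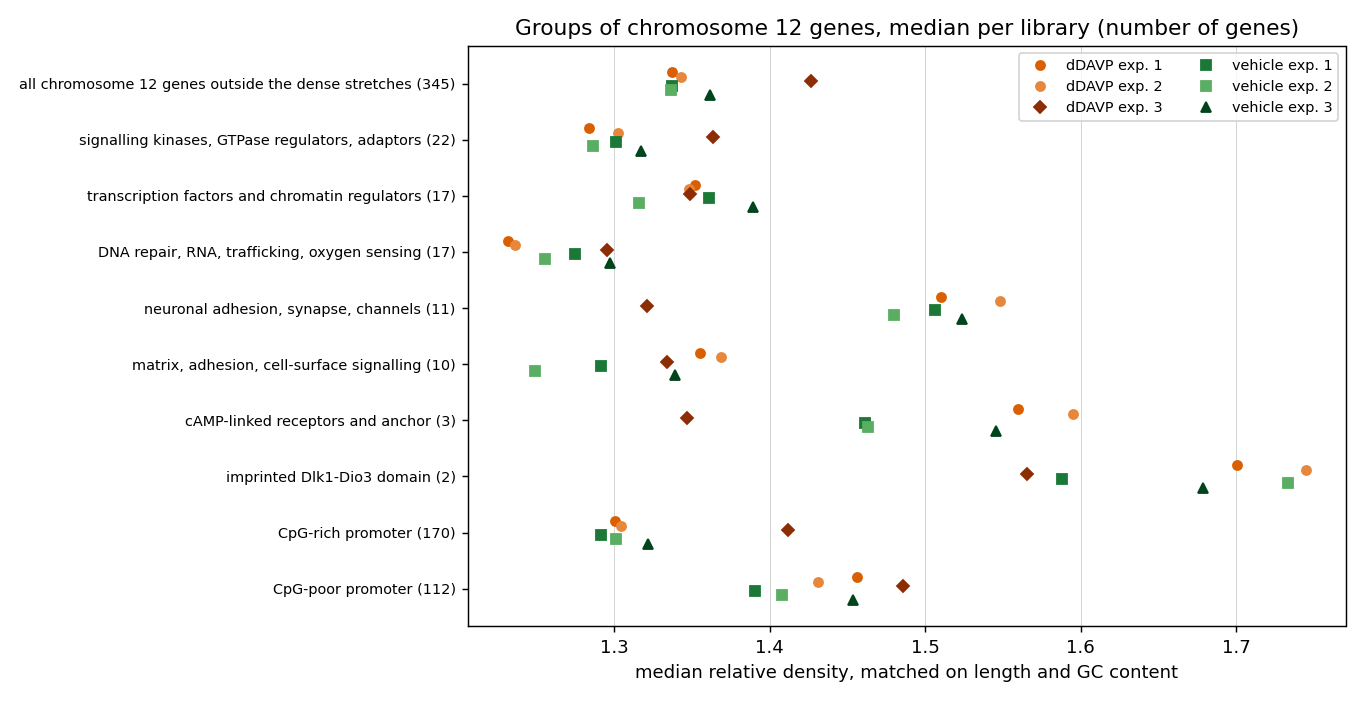
Median GC-matched relative density of groups of chromosome 12 genes, 1 symbol per IgG library, with the number of genes in brackets. In 5 of the 6 libraries the 11 neuronal genes (1.48 to 1.55) lie above the 17 of the DNA repair list (1.23 to 1.30). In dDAVP experiment 3 the 2 lists lie at 1.32 and 1.30. The CpG-poor class lies above the CpG-rich class in all 6.

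The matrix, adhesion and cell-surface list, 10 members with Apob among them, had GC-matched medians of 1.36, 1.37 and 1.33 with dDAVP and 1.29, 1.25 and 1.34 with vehicle. Jag2, a Notch ligand and at 59.4% the member richest in GC, had 1.18, 1.41 and 4.17 with dDAVP and 1.02, 0.998 and 0.734 with vehicle. Numb, an inhibitor of Notch, had 1.27, 1.27 and 0.873 with dDAVP and 1.31, 1.27 and 1.35 with vehicle. Itgb8, an integrin subunit of 37.6% GC, had 1.35, 1.33 and 0.233 with dDAVP and 1.42, 1.46 and 1.74 with vehicle. Apob, the apolipoprotein of low-density lipoprotein, had 1.83, 1.73 and 0.789 with dDAVP and 1.84, 1.68 and 1.85 with vehicle. Jag2 was thus high and Itgb8 low in dDAVP experiment 3 alone, and GC-matched they had 1.98 and 0.584 there. Of the imprinted Dlk1-Dio3 domain, 2 long noncoding RNAs were long enough. Meg3 had 1.58, 1.67 and 2.91 with dDAVP and 1.48, 1.56 and 1.23 with vehicle and Rian 1.67, 1.66 and 1.1 with dDAVP and 1.52, 1.71 and 1.90 with vehicle, and GC-matched they had 1.34 to 1.84 and 1.43 to 1.79.

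The order of single members was another without dDAVP experiment 3. Ranked without it, which was added after seeing the data, none of the 5 highest stayed among the 5 highest, and of the 5 lowest Cdkl1 did. The 5 highest were then Gm20187 (mean of the 5 libraries 2.00), 4921511I17Rik (1.92), Cenpo, a centromere protein gene (1.87), Serpina3g, of a serpin family whose copies may share reads (1.85), and Ppp4r4 (1.84). The 5 lowest were Ccdc85c (0.876), Akt1 (0.920), Cdkl1 (0.931), Clmn (0.958) and Sdc1, the proteoglycan syndecan-1 (0.992).

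Of the 5 highest over the 6 libraries, 3 lie within 0.3 Mb of each other in the 22nd bin: Tunar, a long noncoding RNA (chr12:105336594-105383932), D430019H16Rik, and Bdkrb2, the bradykinin B2 receptor. Tunar had 1.98, 1.93 and 3.06 with dDAVP and 1.70, 1.84 and 1.41 with vehicle, D430019H16Rik 1.85, 1.65 and 3.10 with dDAVP and 1.77, 1.69 and 1.30 with vehicle and Bdkrb2 1.66, 1.54 and 3.50 with dDAVP and 1.58, 1.69 and 1.28 with vehicle. Without dDAVP experiment 3 they ranked 12, 41 and 66 from the highest. GC-matched, those 3 ran over 1.65 to 1.99, 1.56 to 1.91 and 1.61 to 2.00. Of the 5 lowest over the 6 libraries, Cdkl1, a cyclin-dependent kinase-like gene (chr12:69746848-69790707), had 1.09, 1.04 and 1.17 across dDAVP experiments 1 to 3, against 0.850, 0.950 and 0.727 across vehicle experiments 1 to 3, with 381, 351 and 434 reads across dDAVP experiments 1 to 3, against 250, 265 and 358 reads across vehicle experiments 1 to 3. It lay below 1 in each vehicle library and above 1 in each dDAVP library, and GC-matched it had 0.958 in dDAVP experiment 3. Ppp4r3a, a regulatory subunit of protein phosphatase 4, had 1.12, 1.09 and 0.430 with dDAVP and 1.13, 1.14 and 1.20 with vehicle, and Arhgap5, a GTPase-activating protein of 35.1% GC, had 1.15, 1.03 and 0.255 with dDAVP and 1.20, 1.23 and 1.29 with vehicle. Without dDAVP experiment 3, Ppp4r3a, Arhgap5, Strn3 and Egln3 ranked 30, 47, 36 and 8 from the lowest.

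One low-GC member ran against its base composition, and it was chosen after its values were seen. Tc2n, a C2-domain gene of 37.3% GC (chr12:101645446-101718523), had 796, 780 and 781 reads across dDAVP experiments 1 to 3, against 693, 620 and 1422 reads across vehicle experiments 1 to 3. Its GC-matched density was 1.39, 1.47 and 3.65 with dDAVP and 1.39, 1.32 and 1.46 with vehicle, so dDAVP experiment 3 was far above the rest.

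Reads lay along the members about as evenly as along other genes. The share of bases with at least 1 read, over the share expected for the same reads placed evenly, had a median of 0.949, 0.952 and 0.526 with dDAVP and 0.755, 0.763 and 0.966 with vehicle. On other autosomes it was 0.948, 0.949 and 0.554 with dDAVP and 0.747, 0.757 and 0.965 with vehicle. dDAVP experiment 3 had the lowest ratio in both sets. The expected share assumed a read length of 50 bases, and what sets the differences between libraries was not tested. By the deposited covered fraction in place of reads, the members' level over same-size genes was 1.22 to 1.30.

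Treatment was compared per interval over the whole genome with edgeR's quasi-likelihood test, a contrast the rule did not use, to ask whether the background differs with dDAVP. No member passed the adjusted threshold, and neither did any of the 30912 intervals tested (0%). All 345 members were tested. At an unadjusted p under 0.05, 3 members (0.870%) were called, beside 0.763% of all intervals (236), a share near the background. The 3 were Jag2, Ccdc85c and Begain, all higher with dDAVP and all of 55.8 to 59.4% GC. The log2 ratio of dDAVP over vehicle was 1.66 ± 0.62 (SE, edgeR adjusted p = 0.619) for Jag2, 1.52 ± 0.60 (SE, edgeR adjusted p = 0.619) for Ccdc85c and 1.25 ± 0.50 (SE, edgeR adjusted p = 0.619) for Begain. Without dDAVP experiment 3 these ratios were 0.57, 0.41 and 0.45, and with an offset for GC content they were 0.23, 0.30 and -0.09.

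For the 3 listed genes linked to cyclic AMP the log2 ratios were -0.44 ± 0.46 (SE, edgeR adjusted p = 0.627) for Akap6, -0.30 ± 0.37 (SE, edgeR adjusted p = 0.659) for Vipr2 and -0.45 ± 0.43 (SE, edgeR adjusted p = 0.619) for Tshr. Prkar2b, outside the list, had -0.25 ± 0.31 (SE, edgeR adjusted p = 0.659). Bcl11b had 0.85 ± 0.44 (SE, edgeR adjusted p = 0.619), and Cdkl1 had 0.34 ± 0.32 (SE, edgeR adjusted p = 0.619). None of these ratios passed the test. The lowest ratios were -1.11 ± 0.87 (SE, edgeR adjusted p = 0.619) for Itgb8 and -1.06 ± 0.72 (SE, edgeR adjusted p = 0.619) for Hif1a, both of low GC content. The median SE over members was 0.39 on the log2 scale. These ratios are scaled over intervals of all sizes, whereas relative density is set against genes of the same size. For Akap6 the 2 measures differed in sign, and the reason was not tested. Its log2 ratio was 0.15 with the offset for GC content and -0.10 without dDAVP experiment 3.

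The members' log2 ratios followed GC content, with a Spearman's rho of 0.955 over 345 genes, and 0.859 without dDAVP experiment 3. Their median was -0.26, beside 0.01 over all intervals tested. Without dDAVP experiment 3 the median was -0.06, beside 0.00, and with the offset for GC content it was 0.07, beside 0.03. The intervals tested are of any size and GC content, so they are not a like set to the members. Against genes of the same size, the members' median relative density was 1.38 in both groups. Of the 345 ratios, 231 were below 0 in the fit with all libraries and 118 with the offset. The members' median thus changed sign with the GC offset. Without TMM scaling the median over all intervals moved to 0.24 and that of the members to -0.05, with 183 of the 345 below 0.

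**Figure D5:**
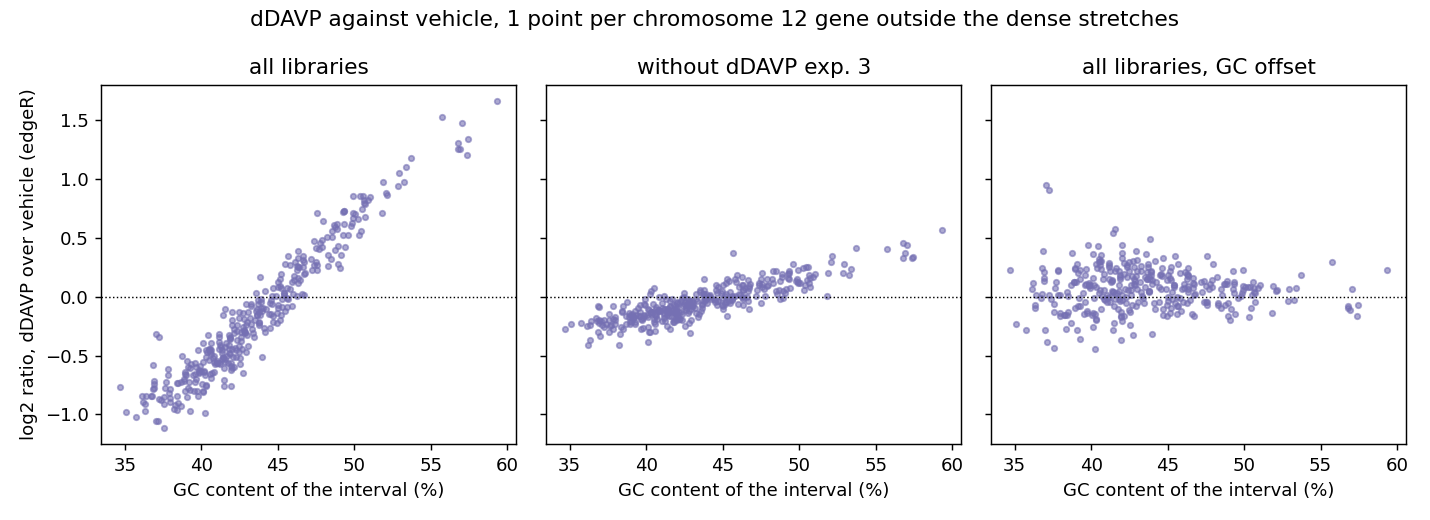
Log2 ratio of dDAVP over vehicle (edgeR) against the GC content of the interval for the 345 chromosome 12 genes outside the dense stretches, 1 point per gene. The ratios rise with GC content with all libraries (rho 0.955), and over a narrower range of ratios without dDAVP experiment 3 (rho 0.859). With an offset per library and GC class they centre near 0 (median 0.07), and no rho was computed there.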

How the data were processed

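ChIP-seq libraries of mpkCCD cells were analysed from the authors' tables. Per the labels' protocols, chromatin was cross-linked in formaldehyde (1.11%), sheared to about 300 bp and sequenced as 50-bp reads, mapped to mm10 with BWA. The submitters' processing notes also list SAMtools and bedtools. The authors' deposited count gives, per the file values, the reads that overlap a RefSeq transcript's whole span with its introns, with no strand and no normalization. The deposited fraction is the share of an interval's bases with at least 1 read. Removal of duplicates is not given in the sources used here.

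The members and lists were chosen with earlier results of these data known. Symbols and GC content came from RefSeq and the GRCm38.p6 reference, whose chromosome 12 has the length of mm10. The longest interval stood for each gene. Relative density used 10 length classes of 953 to 955 autosomal genes, and GC matching used 5 length by 10 GC classes. Named genes were the member with most reads in each bin, the 5 highest and 5 lowest among members with at least 100 reads, and the lists' members, of which some are not reported here. Experiments 1 and 2 of a group differed by chi-square over degrees of freedom of 1.02 and 1.01, under the limit of 1.1 set for sampling noise, and their counts were summed. Of 33063 intervals, 1 was missing in vehicle experiment 2 and left out. Intervals were compared with edgeR 4.0.16 in R 4.3.3 (TMM, filterByExpr, two-sided quasi-likelihood test, Benjamini-Hochberg at 0.05 over 30912 intervals). The SE is the log2 ratio over the root of its F statistic. DESeq2 1.42.0 was an alternative. With 2 samples per group the smallest exact permutation p is 0.333. The scripts (Python 3.11.15, pandas 2.3.3) were tested on simulated data.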

Additional observations from a re-analysis of the deposited data

How the results depend on the processing

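No call at an adjusted p under 0.05 appeared in any of the 14 fits, over all intervals or among the members. Counts at an unadjusted p under 0.05 moved. They were 236 in the edgeR fit as reported, 818 without TMM and 334 without a filter on low counts. There were 1201 with 6 separate libraries, 382 with the GC offset and 1082 with DESeq2. Leaving out experiment 1 or 2 of a group gave 294 to 443 (0.965 to 1.45%), with 3 to 8 among the members (0.870 to 2.32%). Leaving out experiment 3 leaves 1 sample in its group, assumed to vary like the other group, so those counts are not given. With the experiment number as a replicate block, 210 intervals (0.679%) and 6 members (1.74%) were below 0.05 unadjusted and 0 after adjustment. The block was also run with 6 separate libraries, an alternative added after seeing the data. It gave 292 intervals (0.983%) and 1 member (0.290%). Same-numbered libraries of the 2 groups did not deviate together from their group means (r = -0.44, -0.48 and -0.66 over 14599 genes). Experiments 1 and 2 of a group nearly agree, so these deviations are largely set by experiment 3. Its GC trend over the members was opposite in the 2 groups (rho 0.886 with dDAVP and -0.534 with vehicle). The check therefore cannot show whether same-numbered libraries belong together.

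The members' median relative density stayed above 1 in every alternative run. Vehicle was 1.38 as reported, 1.40 with a reference free of chromosome 12, 1.35 matched on length and GC content, 1.35 with at least 100 reads and 1.28 by covered fraction, while dDAVP was 1.42 with all intervals of each gene and 1.25 by covered fraction. Leaving out each replicate gave 1.35 to 1.38 with dDAVP and 1.36 to 1.38 with vehicle. The count of members above 1 in every library was 205, 314 with all intervals, 125 at a minimum of 50 kb (fewer genes) and 205 to 320 when each replicate was left out, 320 without dDAVP experiment 3. The highest bin was 1.75, 1.65 matched on length and GC content, 1.60 in bins of 10 Mb and 1.72 to 1.88 when each replicate was left out, and the lowest 1.16 to 1.25. Causes were not tested. Of 1116 values of named genes under alternatives, 143 moved by more than the spread between samples. Most of these moves came from 2 settings. Matching on length and GC content moved 71 values and left 115 the same, and a reference without matching on length moved 44 and left 142. Members of extreme GC content in dDAVP experiment 3 are the least certain.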
